A study of Homo sapiens with 36 samples.

Results

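The transcriptional response to insulin was measured in hepatoma cells that had first been kept in an insulin-resistant medium. This comparison takes 18 of the 36 libraries of the study, chosen by their titles: 9 from cells left untreated in that medium and 9 from cells given human insulin in it. Every library came from HepG2-IGF1R-KO cells, which are HepG2 human hepatoma cells with a knockout of IGF1R, the gene of the IGF-1 receptor, grown in DMEM with fetal bovine serum. The untreated cells carry the same knockout, no unedited control was analysed here, and everything rests on a single cell line. The insulin-resistant medium held 1 nM human insulin, palmitic, linoleic and oleic acids at 0.5 mM and glucose at 20 mM, and cells spent 72 h in it. Stimulated cells then received 3 nM human insulin for 18 h. Whether the insulin of the medium was removed from the untreated cells is not stated in the labels, so the comparison may be one of 3 nM against 1 nM. The other 18 libraries, from normal medium, are used below only to set the same response beside this one.

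In liver cells, insulin binds its receptor INSR, the receptor phosphorylates the adaptor proteins IRS1 and IRS2, and the kinase AKT then acts on several branches. AKT keeps the transcription factor FOXO1 out of the nucleus, which lowers the transcription of gluconeogenic genes such as G6PC1 and PCK1 and of IGFBP1, and it favours SREBP-1c, which drives fatty acid synthesis. In insulin resistance these branches respond less, and in liver they need not lose their response together. LEAP2, the gene in the title of the study, encodes a liver and gut peptide that antagonises the ghrelin receptor.

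The 9 replicates of a group fell into 3 sets by their numbers, 1 to 3, 4 to 6 and 7 to 9, whose library names carry consecutive plate positions. The sets of untreated cells were not alike, and this has to be known before the results. Whether untreated replicates 1 to 3 came from the same culture as the others was not tested, and this limits every value within replicates 1 to 3. Hepatocyte markers were present in every library, as the cell type label states: none of the 23 listed was at 0, and ALB, the gene of serum albumin, stood at 3460 to 8180 CPM. CPM are read counts brought to a common library total, here with TMM scaling. Stromal markers were a different matter. COL1A1, which encodes a chain of type I collagen and is made by fibroblasts, stood at 0.796 to 0.874 CPM in untreated replicates 1 to 3, at 11100 to 13700 CPM in untreated replicates 4 to 6 and at 23300 to 35800 CPM in untreated replicates 7 to 9. COL1A2, another chain of the same collagen, was at 0 in all of untreated replicates 1 to 3, where 9 to 10 of the 24 listed stromal markers were at 0. The 3 sets of insulin-stimulated cells all held stromal transcripts, with COL1A1 at 10100 to 13700, 25200 to 31500 and 24300 to 32700 CPM in the same order.

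FN1, the gene of fibronectin, divided the libraries in another way. Its level was 7050 to 8170 CPM in untreated replicates 1 to 3, 10700 to 11800 CPM in untreated replicates 4 to 6 and 10600 to 11900 CPM in insulin replicates 1 to 3. In untreated replicates 7 to 9 and insulin replicates 4 to 9 it was at 33200 to 42200 CPM. Replicates 7 to 9 were thus the only set in which both groups held stromal transcripts at overlapping levels. The summed level of the 23 hepatocyte markers was 33020 to 34790 CPM in untreated replicates 1 to 3, 21070 to 24060 CPM in untreated replicates 4 to 6 and 16040 to 19390 CPM in untreated replicates 7 to 9. In insulin-stimulated cells it was 16040 to 19380 CPM over all 9 libraries. Endothelial markers summed to 11.98 to 23.14 CPM, with 1 to 4 of 9 at 0 in a library, and leukocyte markers had 3 to 5 of 12 at 0. These are whole cultures, so fewer cells of a type and less RNA per cell cannot be told apart. Library totals were 26.6M to 28.9M counts in untreated replicates 1 to 3 and 60.3M to 101.8M counts in the other 15 libraries.

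**Figure D1:**
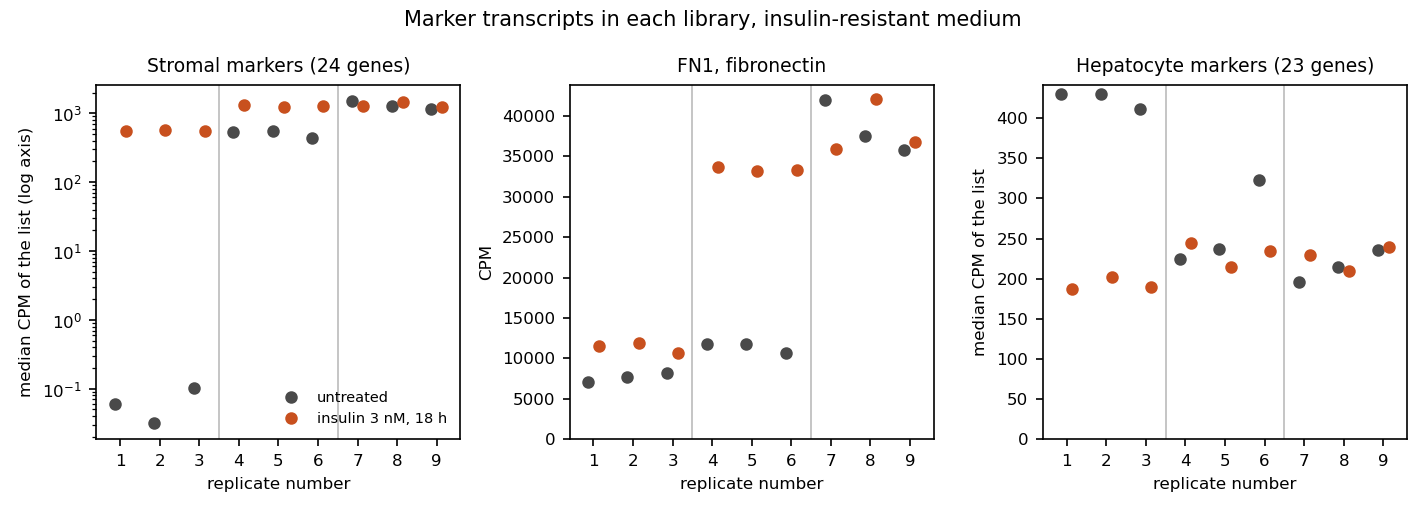
Median TMM-scaled CPM of 24 stromal markers (left, log axis), FN1 (middle) and median CPM of 23 hepatocyte markers (right) in each of 9 untreated (grey) and 9 insulin-stimulated (orange) libraries, by replicate number, with vertical lines between the sets of 3. Untreated replicates 1 to 3 lie at 0.0318 to 0.102 CPM for the stromal list and at 412 to 430 CPM for the hepatocyte list, and the groups overlap in replicates 7 to 9.

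Resemblance between libraries did not follow treatment alone. Each library was expressed as its deviation from the mean of the 18, in log2 CPM over 17983 genes, and the deviations were correlated across genes, which are not independent replicates. Untreated and insulin-stimulated libraries of replicates 7 to 9 had a median correlation of 0.807 over 9 pairs. Within those groups the medians were 0.801 for untreated and 0.781 for stimulated replicates, so that here a library was as close to the other treatment as to its own. Untreated replicates 7 to 9 also correlated at 0.809 with insulin replicates 4 to 6, and the stimulated libraries of those 2 sets correlated with each other at 0.819. Untreated replicates 1 to 3 stood at -0.554, -0.771 and -0.787 against the 3 sets of stimulated libraries, and untreated replicates 4 to 6 at 0.358, -0.21 and -0.15.

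Over all 9 and 9 libraries, no gene was called for insulin. With edgeR's quasi-likelihood test and a batch term, 0 of 17983 genes (0.0%) had a Benjamini-Hochberg adjusted p under 0.05, and the smallest adjusted p was 0.0995. At an unadjusted p under 0.05 there were 4490 genes, and DESeq2 called 85 (49 higher and 36 lower). The count was unstable. Without untreated replicate 7 edgeR called 2008 genes (174 higher and 1834 lower), and without untreated replicate 9 it called 965 (101 and 864). In a fit of the 18 libraries alone, also with a batch term, it called 4012 of 17187 (23.3%). There the 24 May batch is untreated replicates 4 to 6 alone, so its term absorbs them. That contrast rests on untreated replicates 1 to 3 and 7 to 9. In the model of all 36 libraries, edgeR called 2063 genes without a batch term. With a term for the replicate set in place of the batch it called 4481. Without untreated replicates 1 to 3 the count with the batch term was again 0 of 18319 (0.0%), with 444 genes at an unadjusted p under 0.05. Stimulated replicates 4 to 6 of normal medium also lack stromal transcripts. With those left out too, the count was 0, with 964 genes at an unadjusted p under 0.05. In the 18-library fit it fell from 4012 to 0 without untreated replicates 1 to 3, with 1333 genes at an unadjusted p under 0.05. Only untreated replicates 7 to 9 then entered that contrast. Within the 22 April batch and within the 11 April batch 0 genes were called, with 1805 and 1717 at an unadjusted p under 0.05. In insulin-resistant medium the 24 May batch holds untreated libraries only. From normal medium it holds untreated replicates 4 to 6 and stimulated replicates 2 and 4. The labels call the libraries of a group biological replicates without saying how cultures were kept apart, so these p-values measure the spread between libraries, which may in part be technical.

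The 3 sets gave very different answers when insulin was compared with untreated within each. In replicates 1 to 3, where only the untreated libraries lacked stromal transcripts, edgeR called 12463 of 17983 genes (69.3%), 6702 higher and 5761 lower. In replicates 4 to 6, where FN1 differed and all 3 untreated libraries came from the 24 May batch, it called 7005 (39.0%), 3978 higher and 3027 lower, and batch and treatment cannot be told apart. In replicates 7 to 9 it called 0 (0.0%), with 289 genes at an unadjusted p under 0.05 and a smallest adjusted p of 0.741. A fit of these 6 libraries alone also called 0, with 320 genes at an unadjusted p under 0.05. Untreated replicates 7 and 8 carry the date 22 April, and the other 4 libraries of that set carry 11 April.

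Sizes followed the same order. Among 11397 genes with a mean of at least 5 CPM over the 18 libraries, the median absolute log2 fold change was 0.43 in replicates 1 to 3, 0.22 in replicates 4 to 6 and 0.04 in replicates 7 to 9. Differences past 1.5-fold numbered 4319 (37.9%), 1333 (11.7%) and 5 (0.0439%). The 5 in replicates 7 to 9, which can only be picked by their values, were VIM-AS1 at -0.59 ± 0.50 (SE), ENSG00000237094 at -1.03 ± 0.77, ENSG00000181495 at -0.63 ± 1.13, ENSG00000262621 at -0.62 ± 0.63 and ENSG00000238035 at 0.75 ± 1.01, each in log2. Every one of their 95% intervals held 0. ENSG00000181495 shows why they are wide: in this set it was at 0 CPM in 1 insulin library and at 13.3 and 14.6 CPM in the others. For 13177 of the 17983 genes (73.3%), the 95% interval in replicates 7 to 9 lay within 1.5-fold in either direction, so for these genes a larger response in that set is outside the interval.

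Stimulated replicates 1 to 3 and untreated replicates 4 to 6 share the same low FN1 and similar COL1A1, which led to one further comparison, chosen after the levels were seen. There edgeR called 6717 of 17983 genes (37.4%), 3812 higher and 2905 lower, with COL1A1 at 0.01 ± 0.20 and FN1 at -0.01 ± 0.12. Of the 24 stromal markers 8 were higher and 2 lower there, with a median of 0.17. Of the 23 hepatocyte markers 20 were lower and 0 higher there, with a median of -0.54 against 0.03 for all genes, and of the 24 cell cycle genes 17 were higher and 2 lower. LEAP2 was at -0.34 ± 0.20, PCK1 at -0.54 ± 0.18 and FASN at -0.72 ± 0.17. Dates in this comparison are 24 May against April, so batch and treatment cannot be told apart here either.

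A gene can also be followed without a model, by asking whether the libraries of the 2 groups overlap. Of the 11397 genes, 35 (0.307%) had all 9 insulin libraries on one side of all 9 untreated libraries, 16 higher and 19 lower. Without untreated replicates 1 to 3 there were 55 (0.483%), 35 higher and 20 lower. Within the sets the counts were 9669 (84.8%), 7567 (66.4%) and 746 (6.55%), and 144 genes (1.26%) separated in the same direction in each set, 77 higher and 67 lower. Scaled to the summed hepatocyte markers instead of TMM, the 35 became 4, 3 higher and 1 lower. That scaling also moved the split in replicates 1 to 3 from 5082 higher and 4587 lower to 10832 and 41, and in replicates 4 to 6 from 4287 and 3280 to 7292 and 1146. In replicates 7 to 9 the 746 became 353 (257 higher and 96 lower), and the 144 became 77 (72 and 5). Directions given below for replicates 1 to 3 and 4 to 6, and all counts of separated genes, are those under TMM.

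The genes that separated in all 18 libraries differed little in size. RAD21, a subunit of the cohesin ring that holds sister chromatids together, had the largest log2 fold change of the 16 higher genes, 0.39 over all libraries and 0.08 in replicates 7 to 9. NSMCE2, a SUMO ligase of the SMC5/6 complex, was at 0.36 and 0.04. HNRNPC, which binds nascent transcripts, was at 0.28 and 0.03, and MAT2B, the regulatory subunit of the enzyme that makes S-adenosylmethionine, at 0.23 and 0.07. Among the lower genes, ATG16L2, a relative of an autophagy protein, was at -0.61 and -0.22, PGGHG, which trims glucose from collagen, at -0.58 and -0.19, and ENGASE, which cleaves N-glycans, at -0.36 and -0.16. SREBF1 was the only gene among the 28 reported key genes of insulin action to separate. None of these was called by edgeR over all libraries.

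LEAP2, with 48 to 139 counts per library, was at 0.804, 1.21 and 2.13 CPM (lowest, median and highest) in untreated cells and at 0.832, 0.942 and 1.21 CPM in stimulated cells. Untreated replicates 1 to 3, at 1.51 to 2.13 CPM, lay above every stimulated library, untreated replicates 4 to 6 were at 1.11 to 1.31 CPM, and untreated replicates 7 to 9, at 0.804 to 0.995 CPM, overlapped the stimulated range of 0.832 to 1.21 CPM, with replicate 7 below every stimulated library. Its log2 fold change was -0.39 ± 0.18 (SE, edgeR adjusted p = 0.181). In replicates 1 to 3 LEAP2 was lower by -0.90 ± 0.21 (edgeR adjusted p = 0.000405), in replicates 4 to 6 its value was -0.32 ± 0.20, and in replicates 7 to 9 it was 0.17 ± 0.21, with a 95% interval of -0.26 to 0.61. All 23 hepatocyte markers were lower in replicates 1 to 3, with a median of -1.10. Without untreated replicates 1 to 3 LEAP2 was at 0.04 ± 0.18. Scaled to hepatocyte markers, LEAP2 was at 0.08 ± 0.14 over all libraries, where the median of all genes was 0.35. Taking libraries as exchangeable, although those of a set resembled each other, LEAP2 differed by -0.26 ± 0.12 in mean log2 CPM (exact two-sided permutation p = 0.0462, and 0.0577 adjusted over 5 genes). The difference was -0.07 ± 0.09 without untreated replicates 1 to 3 (exact permutation p = 0.412).

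Of the gluconeogenic genes that FOXO1 controls, PCK1 was called in 2 sets and G6PC1 in 1. PCK1, the enzyme that commits oxaloacetate to glucose synthesis, was at 1.55, 2.59 and 4.02 CPM in untreated cells and at 1.61, 1.83 and 2.95 CPM in stimulated cells. Its untreated levels were 3.62 to 4.02 CPM in replicates 1 to 3, 2.51 to 2.85 CPM in replicates 4 to 6 and 1.55 to 2.44 CPM in replicates 7 to 9, so that the groups overlapped only through the last set and stimulated replicate 9. PCK1 was lower with insulin in replicates 1 to 3 (log2 fold change -1.08 ± 0.19, edgeR adjusted p = 1.12e-05) and in replicates 4 to 6 (-0.54 ± 0.19, edgeR adjusted p = 0.0204), and in replicates 7 to 9 stood at 0.13 ± 0.19, with an interval of -0.26 to 0.51. G6PC1, the last enzyme of glucose release, had only 5 to 17 counts per library. It was at 0.0693 to 0.474 CPM untreated and 0.0837 to 0.202 CPM stimulated. G6PC1 was lower in replicates 1 to 3 (-1.32 ± 0.44, edgeR adjusted p = 0.00857) and stood at 0.27 ± 0.41 in replicates 4 to 6. Its interval in replicates 7 to 9, -0.86 to 0.90, is too wide to speak of a response at this depth.

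IGFBP1, a secreted protein that binds IGFs and a long-used marker of insulin action on liver, was at 91.7, 170 and 299 CPM in untreated cells and at 105, 137 and 144 CPM in stimulated cells. All 6 libraries of untreated replicates 1 to 6, at 160 to 299 CPM, lay above every stimulated library, and untreated replicates 7 to 9, at 91.7, 128 and 157 CPM, spanned them. IGFBP1 was lower in replicates 1 to 3 (-1.05 ± 0.32, edgeR adjusted p = 0.00475), at -0.41 ± 0.31 in replicates 4 to 6 and at 0.05 ± 0.31 in replicates 7 to 9. By exact permutation over 9 and 9 libraries PCK1 and IGFBP1 differed by -0.42 ± 0.14 and -0.45 ± 0.19, each with p = 0.0482 adjusted over 5 genes. Without untreated replicates 1 to 3 both had an exact permutation p of 0.43 after that adjustment. The test takes libraries as exchangeable. Untreated replicates 1 to 3, however, had a median correlation of 0.98 with each other and of -0.78 with untreated replicates 7 to 9. These p-values do not allow for the sets, and with each set summed to 1 sample edgeR called 0 genes. Scaled to hepatocyte markers, PCK1 and IGFBP1 were at -0.09 ± 0.10 and -0.03 ± 0.16 over all libraries.

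PPARGC1A, the coactivator PGC-1α that raises gluconeogenic transcription, was, with SREBF1, 1 of 2 among the 28 key genes to separate in replicates 7 to 9. Of the 11397 genes with a mean of at least 5 CPM, 746 (6.55%) separated there, and 2 of 28 is near that share. PPARGC1A, at a mean of 3.58 CPM untreated and 2.67 CPM stimulated, lies below that minimum and is not counted among them. Its level was 4.60 to 5.28 CPM in untreated replicates 1 to 3 and 2.68 to 2.96 CPM in stimulated replicates 1 to 3. In replicates 4 to 6 the groups overlapped, at 2.74 to 3.16 CPM untreated and 2.74 to 3.08 CPM stimulated. In replicates 7 to 9 untreated libraries were at 2.70, 2.95 and 2.93 CPM and stimulated ones at 2.23, 2.07 and 2.29 CPM, without overlap. The log2 fold change there was -0.38 ± 0.21 (interval -0.81 to 0.05, edgeR adjusted p = 1), and -0.39 ± 0.12 in the fit of those 6 libraries alone (edgeR adjusted p = 1). Of the 16 tested genes of the gluconeogenesis and glucose output list, 3 were higher and 11 lower in replicates 1 to 3, 3 and 6 in replicates 4 to 6, and 0 and 0 in replicates 7 to 9. The median of the list was -0.65, -0.06 and 0.02 in these sets, beside 0.03, 0.01 and 0.02 for all genes. SLC37A4, which carries glucose 6-phosphate into the endoplasmic reticulum, and CREB3L3, a liver transcription factor of fasting, were at -0.80 and -1.26 in replicates 1 to 3 and at -0.07 and 0.16 in replicates 7 to 9.

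**Figure D2:**
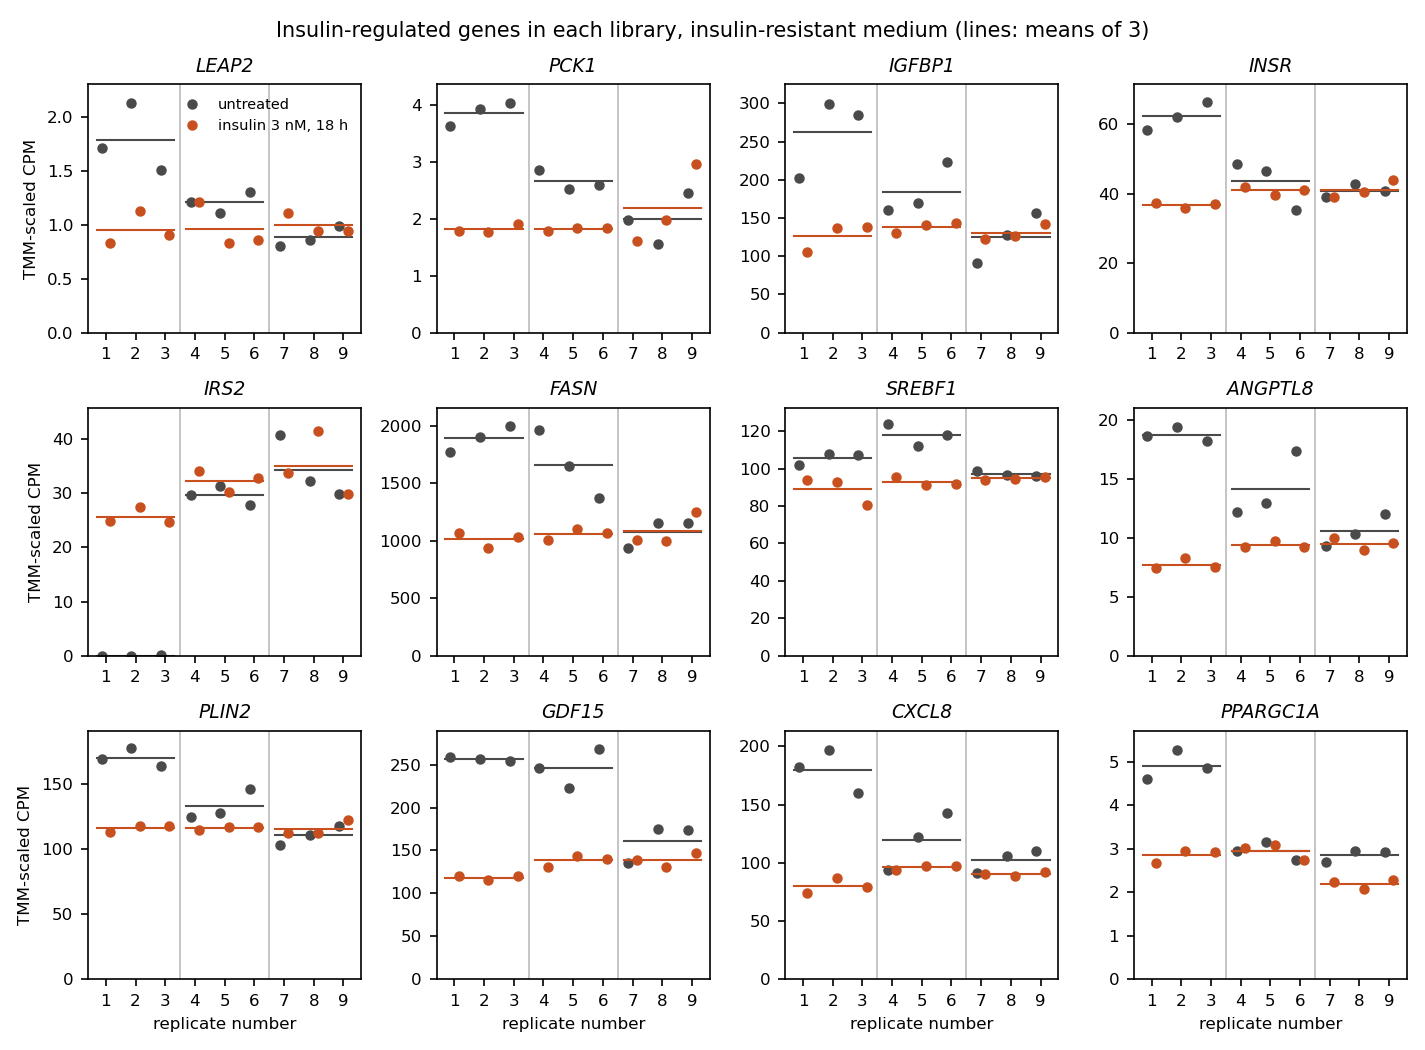
TMM-scaled CPM of 12 genes in each untreated (grey) and insulin-stimulated (orange) library, by replicate number, with vertical lines between the sets and a horizontal line at the mean of each 3 libraries. For LEAP2, PCK1, IGFBP1, INSR, FASN, ANGPTL8 and CXCL8 the grey points lie above the orange ones in replicates 1 to 3 and overlap them in replicates 7 to 9, IRS2 is near 0 in untreated replicates 1 to 3, and only PPARGC1A and SREBF1 show no overlap in replicates 7 to 9.

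Among the receptors and adaptors, INSR stood at 58.4 to 66.4 CPM in untreated replicates 1 to 3, 35.3 to 48.6 CPM in untreated replicates 4 to 6 and 38.9 to 42.8 CPM in untreated replicates 7 to 9, against 35.9 to 44.0 CPM over the 9 stimulated libraries. Only untreated replicates 1 to 5 lay above the stimulated range. INSR was lower in replicates 1 to 3 (-0.76 ± 0.11, edgeR adjusted p = 2.41e-07) and stood at 0.01 ± 0.10 in replicates 7 to 9. By exact permutation over all libraries, again with libraries taken as exchangeable, it differed by -0.27 ± 0.11 (p = 0.0482 adjusted over 5 genes). Without untreated replicates 1 to 3 it differed by -0.09 ± 0.08 (exact permutation p = 0.43 after that adjustment). IRS2, an adaptor whose transcription FOXO1 raises and insulin lowers in liver, stood at 0 to 0.0874 CPM in untreated replicates 1 to 3 and at 24.6 to 41.5 CPM in the other 15 libraries. Low IRS2 thus went with low collagen, and its log2 fold change was 0.12 ± 0.20 in replicates 4 to 6 and 0.03 ± 0.20 in replicates 7 to 9. IGF1R transcripts were counted in all 18 libraries, at 65.3 to 124 CPM, and a count over the whole gene is no check of the knockout.

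Counts of list members called are to be read against the 69.3% of all genes called in replicates 1 to 3 and the 39.0% in replicates 4 to 6, and a share near these is no result about a list. Of 29 tested genes of the insulin signalling list, 10 were higher and 12 lower in replicates 1 to 3, 8 and 5 in replicates 4 to 6, and none either way in replicates 7 to 9, where the median was 0.03. GRB14, an adaptor that inhibits the receptor, was at -1.10 in the first set and 0.02 in the last. CEACAM1, which takes part in insulin clearance by liver, was at -1.08 and -0.01, PHLPP1, a phosphatase of AKT, at -0.74 and 0.01, and AKT2, the main AKT of liver, at 0.42 and 0.05. In replicates 7 to 9, 28 of the 29 had intervals within 1.5-fold, with SH2B2, an adaptor that binds the receptor, lowest at -0.19 and GSK3B, a kinase that AKT inhibits, highest at 0.07. Of the 18 FOXO targets, 7 were higher and 9 lower, then 3 and 4, then 0 and 0, beside 69.3%, 39.0% and 0.0% of all genes called, and 16 of 18 intervals stayed within 1.5-fold in the last set. FOXO1 itself was at 17.2 to 31.1 CPM, lower in replicates 1 to 3 (-0.40 ± 0.10, edgeR adjusted p = 0.000662), higher in replicates 4 to 6 (0.40 ± 0.10, edgeR adjusted p = 0.0015) and at 0.04 ± 0.10 in replicates 7 to 9.

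SREBF1, which encodes SREBP-1, is a gene that insulin raises in normal liver. In untreated cells it was at 96.2, 107 and 124 CPM and in stimulated cells at 80.6, 94.0 and 95.6 CPM, so every stimulated library lay below every untreated one. In replicates 7 to 9 the gap was narrow, 96.2 to 98.7 CPM against 94.0 to 95.6 CPM, and the log2 fold change was -0.04 ± 0.09. Over all libraries it was -0.11 ± 0.08 (edgeR adjusted p = 0.384), and it passed within replicates 1 to 3 (-0.25 ± 0.09, edgeR adjusted p = 0.0206) and 4 to 6 (-0.35 ± 0.09, edgeR adjusted p = 0.00431). Scaled to hepatocyte markers its value over all libraries was 0.26 ± 0.14, so the sign depends on the scaling. The median of all genes was 0.35 under that scaling and 0.01 under TMM, and SREBF1 lay below it in both.

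FASN, the fatty acid synthase, stood at 1370 to 2000 CPM in untreated replicates 1 to 6, at 938 to 1150 CPM in untreated replicates 7 to 9 and at 935 to 1250 CPM in stimulated cells. It was lower in replicates 1 to 3 (-0.90 ± 0.17, edgeR adjusted p = 2.78e-05) and 4 to 6 (-0.65 ± 0.17, edgeR adjusted p = 0.00307), and its value in replicates 7 to 9 was 0.01 ± 0.17. SCD, which desaturates stearate, was at 0.06 ± 0.10 there, and PNPLA3, a lipid droplet protein driven by SREBP-1c, at 0.10 ± 0.13. The fatty acid synthesis list had 14 of 20 genes lower and 3 higher in replicates 1 to 3, 9 and 4 in replicates 4 to 6 and 0 and 0 in replicates 7 to 9. MLXIPL, which encodes the glucose-responsive factor ChREBP, had the lowest value of the list in that last set, -0.24 ± 0.18.

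Cholesterol synthesis showed the contrast between sets plainly. Of 25 genes, 23 were lower and 2 higher in replicates 1 to 3, 7 and 3 in replicates 4 to 6, and none in replicates 7 to 9, where the values ran from -0.03 for PMVK to 0.06 for SC5D and all 25 intervals stayed within 1.5-fold. The medians were -0.54, -0.10 and 0.02. HMGCS1, an early enzyme of the pathway, stood at 717 to 812 CPM in untreated replicates 1 to 3 and at 382 to 494 CPM in the other 15 libraries.

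ANGPTL8, a secreted inhibitor of lipoprotein lipase that insulin induces in liver, was at 9.29, 12.9 and 19.4 CPM in untreated cells and 7.40, 9.21 and 9.97 CPM in stimulated cells. Only untreated replicate 7 fell within the stimulated range. The log2 fold change was -0.70 ± 0.20 (edgeR adjusted p = 0.0995), -0.33 ± 0.21 without untreated replicates 1 to 3 and -0.15 ± 0.23 in replicates 7 to 9. PLIN2, which coats lipid droplets, ranged over 164 to 178 CPM in untreated replicates 1 to 3 and over 103 to 146 CPM in the other 6 untreated libraries, against 112 to 122 CPM in stimulated ones, and stood at 0.06 ± 0.10 in replicates 7 to 9. The lipid droplet and lipoprotein list had 17 of 22 genes lower and 4 higher in replicates 1 to 3, and 9 and 2 in replicates 4 to 6. Its medians were -0.98, -0.31 and 0.02 over the 3 sets.

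Secreted stress signals and inflammatory genes gave similar pictures. GDF15, a stress hormone, was at 135, 246 and 268 CPM in untreated cells and at 115, 131 and 147 CPM in stimulated cells, and again only untreated replicate 7 lay within the stimulated range. It was at -0.67 ± 0.17 over all libraries (edgeR adjusted p = 0.0995), at -0.39 ± 0.19 without untreated replicates 1 to 3 and at -0.21 ± 0.19 in replicates 7 to 9, where the interval was -0.60 to 0.18. The chemokine gene CXCL8 was at 91.6, 122 and 197 CPM untreated and 74.2, 90.2 and 97.3 CPM stimulated, and stood at -0.70 ± 0.20, -0.37 ± 0.23 and -0.18 ± 0.21 in the same 3 comparisons. ICAM1, an adhesion molecule induced by NF-kB, was at -0.60 ± 0.16, -0.21 ± 0.15 and -0.05 ± 0.13. Of the 18 tested genes of the inflammation list, 14 were lower and 3 higher in replicates 1 to 3, and 5 lower and 1 higher in replicates 4 to 6. Of all genes 69.3% and 39.0% were called in those 2 sets. The list had medians of -0.98, -0.32 and 0.02 in the 3 sets. RELB, an NF-kB subunit, was at -0.92, -0.67 and -0.07, and NFKBIA, the inhibitor that NF-kB induces, at -0.84, -0.33 and 0.14. EREG, an EGF receptor ligand, stood at 58.4 to 70.4 CPM in untreated replicates 1 to 3 and at 27.8 to 39.9 CPM in the other 15 libraries.

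Groups of genes in which insulin commonly acts through growth signals gave values close to 0 in replicates 7 to 9. Of 25 ribosome biogenesis and MYC target genes, 21 were lower and 1 higher in replicates 1 to 3 and 2 were higher in replicates 4 to 6, while in replicates 7 to 9 all 25 intervals lay within 1.5-fold around a median of 0.03. The 22 endoplasmic reticulum chaperone genes had a median of 0.05 in that set, with all intervals within 1.5-fold, and 5 of them had stimulated libraries above untreated ones without overlap, beside 550 of 11397 genes. Their values ran from 0.01 for SEC61B to 0.14 for DNAJC3. The ATF4 and amino acid synthesis list was at -0.26 in replicates 1 to 3 and 0.27 in replicates 4 to 6, and at 0.00 in replicates 7 to 9. Cell cycle genes had a median of 0.36 without untreated replicates 1 to 3, the highest of the 26 lists in that fit, with CCNB2, the cyclin of mitotic entry, at 1.01 and BIRC5, survivin, at 0.90. In replicates 7 to 9 these were 0.13 and -0.02, and none was called in either comparison. Within replicates 1 to 3 the median was 0.15, with 12 of 24 higher and 7 lower, and within replicates 4 to 6 it was -0.27, with 0 higher and 13 lower. The stimulated libraries of replicates 1 to 3 stood apart, with BIRC5 at a mean of 123 CPM against 39.4 and 38.0 CPM in the other stimulated sets and CCNB2 at 50.9 CPM against 17.2 and 16.5 CPM.

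Genes of glycolysis and hypoxia had medians above 0 in the first 2 sets, where 69.3% and 39.0% of all genes were called. Of 22 genes of glycolysis and glucose entry, 12 were higher and 6 lower in replicates 1 to 3, and 13 were higher and 1 lower in replicates 4 to 6, with medians of 0.27 and 0.40 and 0.04 in replicates 7 to 9. GAPDH, a housekeeping enzyme of glycolysis, was at 0.84, 0.51 and 0.01 in the 3 sets, and PKM, the pyruvate kinase of most tissues other than liver, at 1.49, 0.20 and 0.03. PKLR, the pyruvate kinase of liver, was at -1.14, -0.54 and -0.04 instead. The 16 tested hypoxia genes had medians of 0.38, 0.70 and 0.03, with 7 higher and 4 lower, then 12 and 1, then none called.

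The remaining lists repeated the pattern of large values in the first set and small ones in the last. Of the 15 tested LXR target and bile acid genes, 14 were lower in replicates 1 to 3 and 7 lower in replicates 4 to 6, with medians of -0.95, -0.33 and -0.05. ABCG5, a sterol exporter, was at -1.15, -0.59 and -0.23 over the 3 sets, and NR0B2, the repressor SHP of bile acid synthesis, at -1.10, -0.59 and -0.09. Fatty acid oxidation genes had medians of -0.30, -0.12 and 0.03, with 12 of 21 lower and 0 higher in replicates 1 to 3, where 69.3% of all genes were called. Of 20 NRF2 targets, 7 were higher and 11 lower in replicates 1 to 3, among them TKT, a transketolase, at 0.93, which stood at -0.33 in replicates 4 to 6 and at 0.06 in replicates 7 to 9. DUSP6, a phosphatase that ERK signalling induces, was at -0.47, -0.55 and -0.07. All 22 respiratory chain genes had intervals within 1.5-fold in replicates 7 to 9, where the list median was 0.00.

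The marker lists differed along with the pathways. In replicates 1 to 3 all 23 hepatocyte markers were lower and all 24 stromal markers higher, and in replicates 4 to 6 13 hepatocyte markers were lower while 17 stromal markers were higher and 3 lower. In replicates 7 to 9 none of either list was called, the medians were 0.04 and 0.01, and all 23 and all 24 intervals lay within 1.5-fold. Over all 18 libraries the hepatocyte list had a median of -0.49, with all 23 values below 0, close to -0.49 for acute phase and secreted liver proteins, -0.46 for hepatokines and -0.51 for inflammation. Scaled to hepatocyte markers, which moved the median of all genes to 0.35, these 4 lists were at -0.01, 0.00, -0.02 and -0.02. The first of these values is near 0 by construction, because the scaling uses those 23 markers. The part of the marker levels in the gene results of replicates 1 to 6 was not tested.

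**Figure D3:**
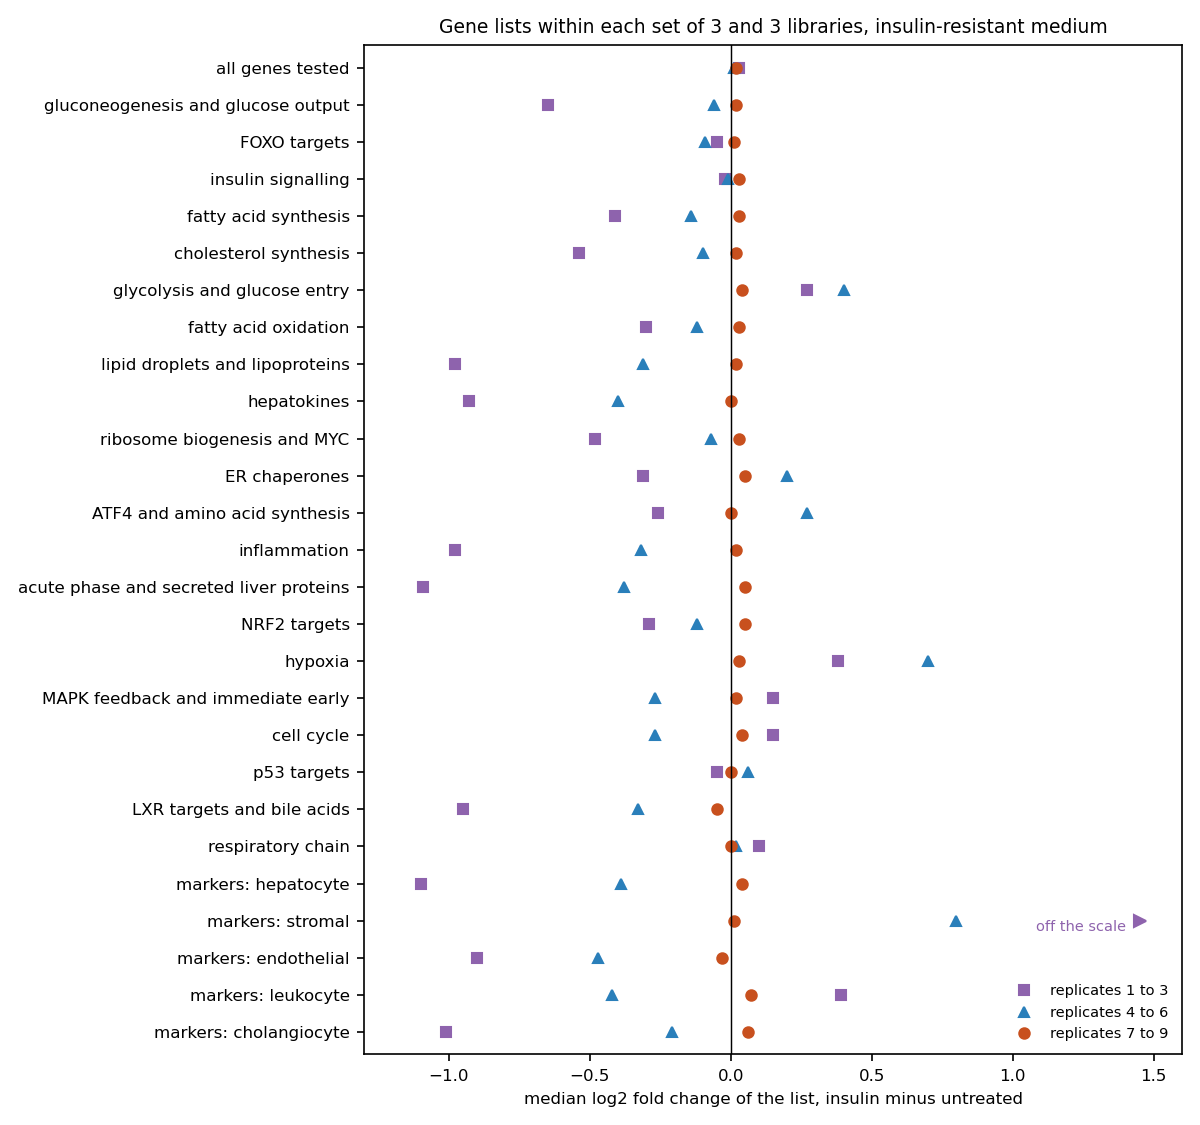
Median log2 fold change, insulin minus untreated, of all genes tested and of 26 gene lists within replicates 1 to 3 (purple squares), 4 to 6 (blue triangles) and 7 to 9 (orange circles), under TMM scaling. The stromal list in replicates 1 to 3 lies off the scale, because its untreated libraries are at or near 0 and such a value depends on the prior count, and the orange circles all lie between -0.05 and 0.07.

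The same cells in normal medium provide the measure of what insulin did elsewhere in the study. Left out on both sides were the 6 libraries without stromal transcripts, untreated replicates 1 to 3 of the insulin-resistant medium and stimulated replicates 4 to 6 of normal medium. The 2 responses have separate untreated controls. In normal medium edgeR then called 2802 genes higher and 3294 lower, with median log2 fold changes of 0.35 and -0.56. In insulin-resistant medium these genes had medians of -0.01 and -0.01, with 0 called in either set, and in replicates 7 to 9 medians of 0.03 and 0.00. The difference between media, resistant minus normal, was called for 3975 genes without the 6 libraries and for 5352 of 17983 (29.8%) with all libraries.

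LEAP2 was among the genes whose response differed between media once those libraries were left out. It fell with insulin in normal medium, with a log2 fold change of -1.05 ± 0.13 (edgeR adjusted p = 3.23e-07), and the difference between media was 1.07 ± 0.19 (edgeR adjusted p = 0.000166). With all 36 libraries that difference was 0.30 ± 0.25 (edgeR adjusted p = 0.379), so its call rests on leaving out the 6. The same held for PCK1, at 1.16 ± 0.17 without them (edgeR adjusted p = 1.82e-05) and 0.30 ± 0.25 with them (edgeR adjusted p = 0.377). PNPLA3, PPARGC1A, HMGCS1 and INSR likewise fell in normal medium without the 6, with log2 fold changes of -0.97, -0.81, -0.50 and -0.43. With all libraries they were at -0.73, -0.32, -0.14 and -0.16 in normal medium, and only PNPLA3 was called. Their differences between media were 0.95, 0.79, 0.51 and 0.38 without the 6, all called. With all libraries those differences were 0.31, -0.12, -0.26 and -0.17, none called. The 23 hepatocyte markers also fell in normal medium without the 6, with a median of -0.30, 14 lower and 1 higher. In insulin-resistant medium their median in that fit was -0.05, and the part of this shift in the falls above was not tested. EREG, CXCL8, GDF15, ANGPTL8 and PLIN2 rose in normal medium, with log2 fold changes of 3.25, 1.53, 1.24, 1.80 and 0.84. In the same fit without the 6, none of these 5 was above 0 in insulin-resistant medium, with values of -0.08, -0.29, -0.34, -0.31 and -0.03. The difference between media was called for each both with and without the 6. HP, the gene of haptoglobin, and FST, follistatin, fell in normal medium, with log2 fold changes of -2.80 and -1.93, and stood at 0.17 ± 0.17 and 0.01 ± 0.13 in replicates 7 to 9 of the insulin-resistant medium.

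**Figure D4:**
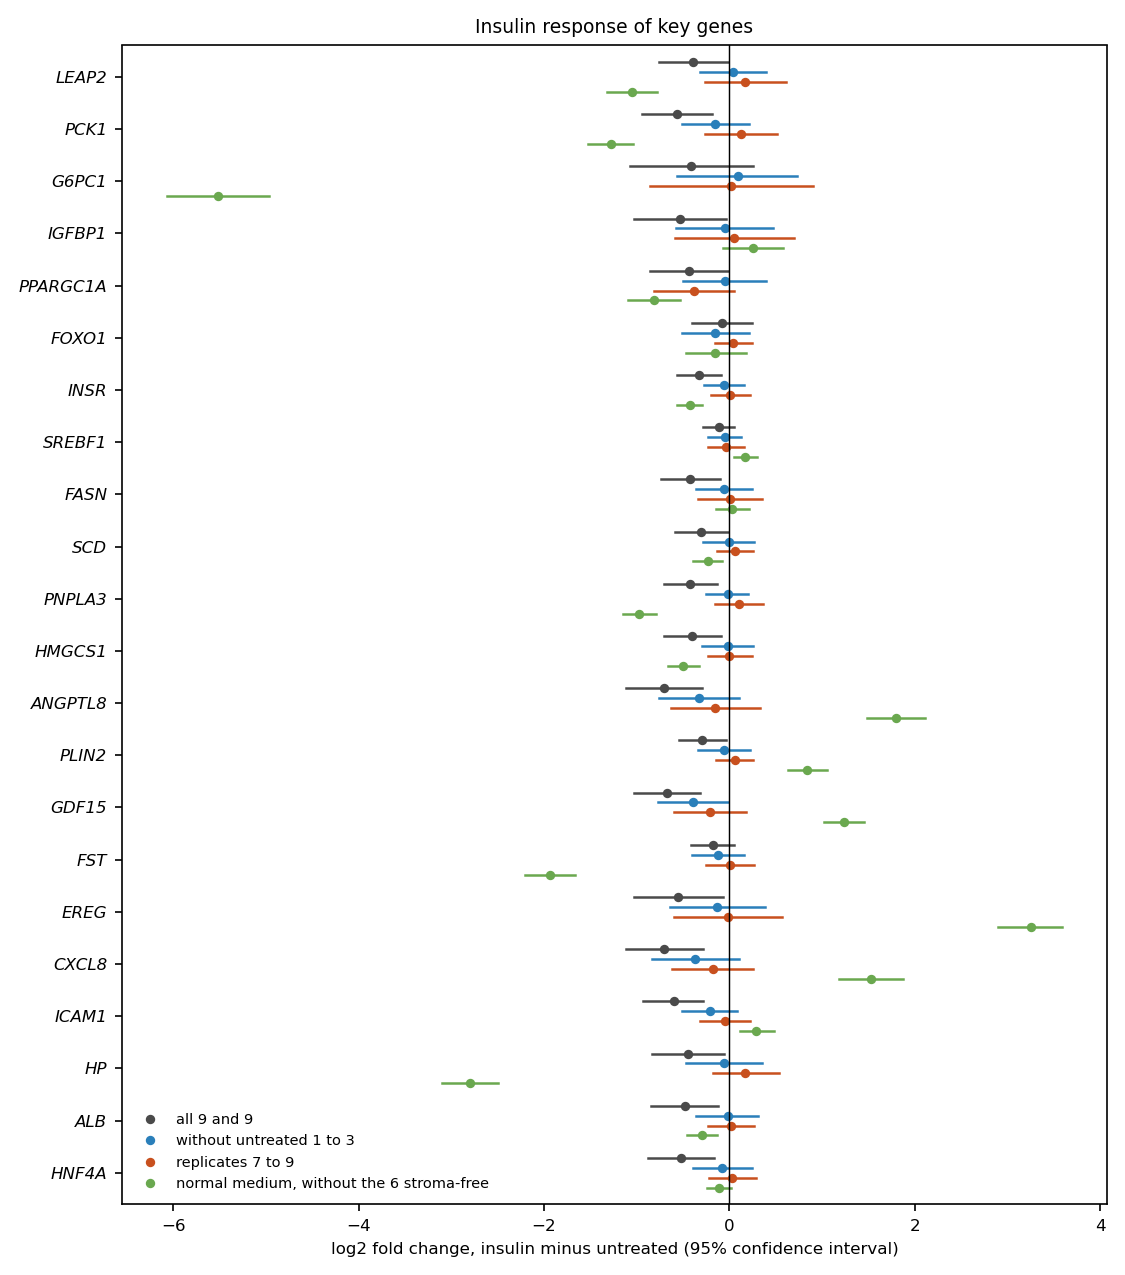
Log2 fold change of 22 genes with insulin, with 95% confidence intervals, over all 9 and 9 libraries in insulin-resistant medium (grey), without untreated replicates 1 to 3 (blue), in replicates 7 to 9 alone (orange) and in normal medium without the libraries that lack stromal transcripts (green). All orange intervals hold 0, while the green points run from -5.52 for G6PC1 to 3.25 for EREG.

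FOXO proteins bind a core of GTAAACA, and the insulin response elements first described in insulin-lowered liver genes hold CAAAACA. RefSeq promoter windows of GRCh38.p14, from 250 bases before to 50 after a gene's start, were searched for both on either strand. LEAP2 (chr5:132873418-132873717, plus strand) and G6PC1 (chr17:42900549-42900848, plus strand) held neither, which says only that these letters are not in those windows, and PCK1 and IGFBP1 were not analysed here. IRS2 (chr13:109786534-109786833, minus strand), added after its levels had been seen, held the second motif on the opposite strand, starting 40 bases before the start of the gene. It is shown because IRS2 is a FOXO target whose level differed between the sets of untreated cells, with the motif, TGTTTTG as read on the strand of the gene, in capitals.
IRS2: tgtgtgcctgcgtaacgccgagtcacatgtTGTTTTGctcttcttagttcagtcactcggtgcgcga
Of 35116 promoters, 3.42% held the first motif and 4.92% the second, and a match is no sign that a factor binds.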

How the data were processed

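Strand-specific libraries were made from poly-A RNA, per the labels' protocols. The authors deposited expected counts (reads estimated for each Ensembl gene, so not always whole), made with STAR and Salmon on GRCh37 per the submitters' processing notes. The sources used here give no versions, annotation or filters. Counts were rounded for testing, since 15.5% of values were not whole. Symbols came from a GRCh38 table by Ensembl identifier (51994 of 57771 genes). Splits of reads between paralogs cannot be checked.

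All 36 libraries, 9 in each of 4 groups assigned by title, entered a model of group and batch date (edgeR 4.0.16, R 4.3.3, TMM, filterByExpr, robust quasi-likelihood test, Benjamini-Hochberg over 17983 genes, threshold 0.05). Comparisons within replicate sets came from a fit with a coefficient for each group and set, without the batch term. Permutation tests used log2(CPM + 0.5). Genes were named if on a list of key genes (28 reported), among 10 with the highest and 10 with the lowest fold change among genes that separated, among the 10 largest rises and falls called (none here), or among 4 per list with the smallest p. Other genes named are the lowest and highest of a list in replicates 7 to 9 and the 5 past 1.5-fold there. Some results of genes that meet this rule are not reported here. The members and lists were chosen with earlier results of these data known. Of 538 list entries 531 were found, and the others were not analysed here. Only the fit of all 36 libraries with the batch term was tested on simulated data. Those data held no differences between sets or batches or in stromal content. The other fits were not tested in this way. No pair of replicates agreed within sampling noise (lowest chi-square per gene 4.2). At 26.6M counts and more, a count of 0 allows up to 3 counts. Intervals cover the spread between libraries. Alternatives were DESeq2 1.42.0, other scalings, filters and batch terms, a replicate block, and libraries left out.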

Additional observations from a re-analysis of the deposited data

Results flagged for a closer look

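In 56 groups of 9 libraries, one for each reported key gene and treatment, the highest or lowest library was checked for standing apart from the rest (Dixon's test, which chance alone passes in about 1 group in 20). In 5 it did. PCK1 reached 2.95 CPM in stimulated replicate 9, with the next library at 1.98 CPM, and PNPLA3 reached 19.3 CPM in the same library, next to 17.1 CPM. SREBF1 was lowest in stimulated replicate 3, at 80.6 CPM, with the next at 91.2 CPM. FGF21, a fasting hormone, was highest at 0.159 CPM in untreated replicate 2 (next 0.0752 CPM) and at 0.0926 CPM in stimulated replicate 3 (next 0.0558 CPM), and it had at most 8 counts in any library.

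For 15 key genes the response to insulin differed between media in the test of the difference itself (edgeR over all 36 libraries, log2 fold change in insulin-resistant minus normal medium). The value without the 6 libraries that lack stromal transcripts follows each in parentheses. Differences above 0 were 4.68 for G6PC1 (5.54), 1.89 for HP (2.77) and 1.70 for FST (1.84). G6PC1 had only 5 to 17 counts per untreated library in insulin-resistant medium, which limits any fall that could be seen there. Differences below 0 were -4.27 for EREG (-3.33), -2.92 for ANGPTL8 (-2.11), -2.66 for CXCL8 (-1.82), -2.36 for GDF15 (-1.58), -1.41 for PLIN2 (-0.87) and -1.27 for ICAM1 (-0.50), and these 9 genes were called in both fits. The other 6 were called only with all libraries: FGF21 at -1.68 (-0.72), IGFBP1 at -1.25 (-0.26), HNF4A at -0.86 (0.05), FASN at -0.84 (-0.08), ALB at -0.64 (0.29) and SREBF1 at -0.55 (-0.23). HNF4A, which encodes a master regulator of hepatocyte genes, and ALB change sign between the fits, and both belong to the hepatocyte markers that were high in untreated replicates 1 to 3.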

How the results depend on the processing

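The count of 0 genes held with size factors of DESeq2 in edgeR, with hepatocyte scaling, without a filter, with a CPM filter, with summed sets, within the 22 April and 11 April batches, without the libraries that lack stromal transcripts, with untreated replicates 7 to 9 against stimulated replicates 4 to 9, and in the 6-library fit of replicates 7 to 9, an alternative added after seeing the data. It was 85 with DESeq2, 2063 without a batch term and 4481 with a term for the replicate set. In the 18 libraries alone, where the batch term absorbs untreated replicates 4 to 6, it was 4012. It was 12463 and 7005 within replicates 1 to 3 and 4 to 6. For stimulated replicates 1 to 3 against untreated 4 to 6, also added later, it was 6717. Leaving out 1 library gave 0 to 2008 genes, with calls in 2 of 18 fits. Same-numbered replicates did not pair (correlation of deviations over 0.1 in 5 of 9, highest with the own number in 2 of 9), and a replicate block gave 2674 genes, 911 higher and 1763 lower. The 35 separated genes became 4 with hepatocyte scaling, 55 without untreated replicates 1 to 3 and 746 within replicates 7 to 9. Of the reported key genes 2 were called in replicates 4 to 6 in the opposite direction to their value over all libraries, FOXO1 at 0.40 and PDK4 at -2.13, and the cause was not tested. There G6PC1 (0.27) and SCD (0.08) changed sign without being called. Depth limits G6PC1, FGF21 and PDK4, which had at most 38 counts in a library.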
